A study of Mus musculus with 2 samples.

Results

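Collagen chain genes were described in MC3T3-E1 cells after parathyroid hormone (PTH). The genes were taken as every row of the deposited count table whose symbol matches the pattern Col, a number, a, a number. The pattern uses no measured values, though it was chosen with earlier results of these data known. The pattern found 44 of 55487 rows, and 35 of the 44 had a total of 20 or more counts over both libraries and were compared. The PTH library came from cells given 10 nM PTH and the untreated library from cells without it, both labelled 1 h. Per the labels, the medium of both cultures held 10% serum, the seeding density was 25000 cells per cm2 and treatment began 24 h after seeding. They name no differentiation step. MC3T3-E1 is a clonal osteoblast-like line from mouse calvaria, so both libraries come from 1 established line. With 1 library per condition there were no replicates, and p-values were not given.

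Collagens are the main structural proteins of the extracellular matrix. Each molecule is a triple helix of chains with a repeated glycine-X-Y motif, built from 1 kind of chain or from different chains encoded by separate genes. Type I collagen, assembled from the Col1a1 and Col1a2 chains, makes up most of the organic matrix of bone, and osteoblasts secrete it. PTH acts on osteoblasts through the receptor Pth1r, which raises cyclic AMP, and its actions on bone include changes in matrix synthesis and breakdown over longer times than the 1 h sampled here.

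The PTH library held 70036872 counts and the untreated library 66302211, and ratios were taken after TMM scaling, a method that sets the level of each library from the bulk of its genes. Bracketed ranges are 95% exact intervals of a ratio, which cover counting error only and compare these libraries. A gene was called as having more or fewer reads when its whole interval lay beyond 1.5-fold. Of the osteoblast markers 10 of 10 were detected, with summed levels of 8103 CPM in the PTH library and 7373 CPM in the untreated library. CPM are scaled counts set to a common library size. Most of each sum was Sparc, at 6386 CPM in the PTH library and 5577 CPM in the untreated library. Sp7, an osteoblast transcription factor, was the 1 called, with fewer reads, where 3.54% of all rows compared were. It had 1974 counts in the PTH library and 4583 in the untreated library, a ratio of 0.418. Of the others, Ibsp (0.774), Pth1r (0.803), Dmp1 (0.643) and Spp1 (0.952) were below 1. Sparc (1.15), Bglap (1.48), Runx2 (1.03), Alpl (1.02) and Postn (1.002) were above 1. Chondrocyte markers summed to 181 CPM and 70.6 CPM, mostly Sox9, and the cartilage genes Acan, Matn1 and Snorc were at 0 in both. Basal epithelial markers summed to 28.2 CPM and 25.5 CPM, with Krt5 and Epcam at 0. Adipocyte, muscle, macrophage and osteoclast, and endothelial markers each summed to between 0.134 and 3.18 CPM. Of these 4 lists, Adipoq, Plin1, Lep, Cidec, Myod1, Actc1, Ckm, Ptprc, Adgre1, Ocstamp, Cdh5, Kdr and Tie1 were at 0 in both libraries. In RNA from a whole culture, fewer cells of a type and less RNA per cell cannot be told apart.

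Collagen RNA was among the most abundant in these cells, and after 1 h of PTH nearly all of it stood close to its untreated level. The 44 genes took 7.94% of all counts in the PTH library (exact binomial interval 7.94% to 7.95%) and 7.73% in the untreated library (7.73% to 7.74%), a share ratio of 1.03. Of the 35 genes compared, 1 was called with more reads (Col7a1), where 5.39% of all 16408 rows were, and 1 with fewer (Col6a4), where 3.54% were. The other 33 were neither, so the share of calls among collagen genes was near the background. Their median log2 ratio was 0.09, beside 0.00 over all rows compared.

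The abundant collagens stayed within a narrow band just above even. Among the 24 with 1000 or more counts, 1 was called with more reads, where 3.25% of the 9549 rows of that depth were, and 0 with fewer, where 1.57% were. Of the 24 genes, 22 had a ratio within 1.2-fold of 1, which is 91.7% of them, beside 78.2% of those rows. The 2 outside that band were Col7a1 and Col2a1. Log2 ratios of the 24 genes ran from -0.02 to 0.91 with an SD of 0.19, and those of the 9549 rows had an SD of 0.39. The interval lay wholly above 1 for 19 of the 24 genes, beside 33.8% of those rows, and wholly below 1 for none of them, beside 34.0%. Counting intervals on one side of 1 was chosen after the data were seen. Intervals narrow with depth, and 18 of the 24 genes had 10000 or more counts. Of these 18, 17 lay above 1 and 0 below, beside 46.7% and 30.5% of the 2940 rows of that depth. Within 1.2-fold of 1 were 94.4% of the 18, beside 83.6% of the 2940 rows. The median log2 ratio of the 18 was 0.09, beside 0.03. Within these libraries, then, most abundant collagens sat a few percent above the scaling line. These counts depend on the scaling, which moves every ratio by the same factor. With total-count scaling 16 of the 24 intervals lay above 1, beside 27.2% of the rows, those of Col3a1, Col6a3 and Col8a1 then held 1, and 1 lay below 1 (Col8a2, at 0.982), beside 41.8%. With upper-quartile scaling 18 lay above 1, beside 29.0%, and 0 below, beside 39.6%.

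**Figure D1:**
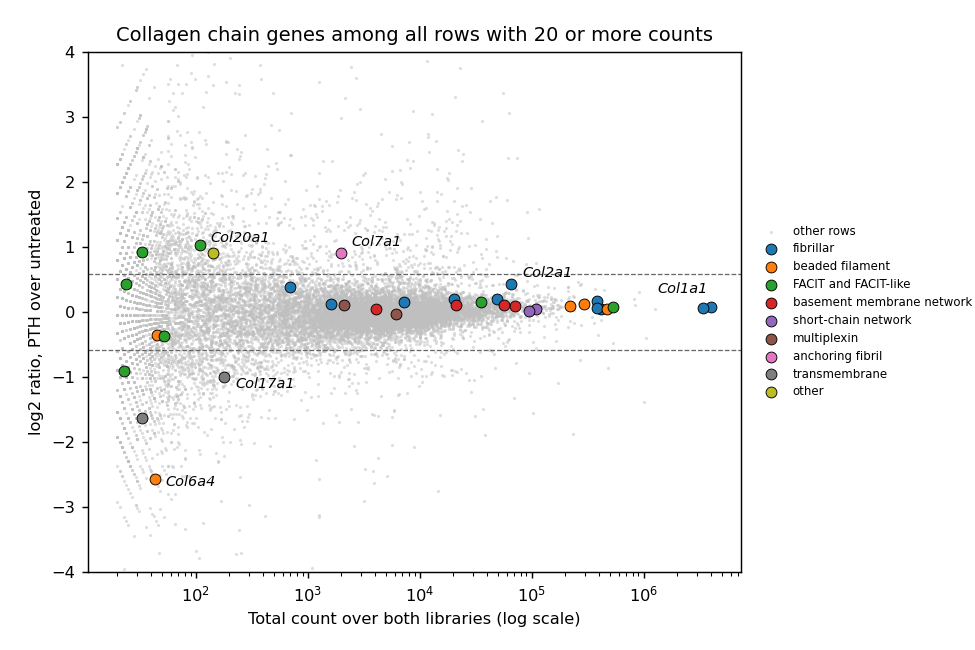
Log2 ratio of PTH over untreated (y axis) against the total count over both libraries (x axis, log scale) for every row with 20 or more counts, grey for other rows and coloured by structural class for collagen genes; dashed lines mark 1.5-fold, and 172 other rows lie beyond the axis. Collagen genes with 1000 or more counts lie between -0.02 and 0.91, with Col7a1 and Col2a1 the highest, and the spread widens among genes with fewer counts.

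Fibrillar collagens, which form the banded fibrils of bone, skin and cartilage, held 82.0% of collagen counts in both libraries. All 11 were compared and none was called in either direction, where 5.39% of all rows were called with more reads and 3.54% with fewer, so a count of 0 among 11 genes is near the background. Their ratios ran from 1.03 to 1.35 and their median log2 ratio was 0.15. Col1a1, at chromosome 11, 94936224 to 94953042 on the plus strand (GRCm38, the mm10 assembly), encodes the more abundant chain of type I collagen. It had 2093308 counts in the PTH library and 1935295 in the untreated library, a ratio of 1.05 (1.05 to 1.05), and ranked 1st of all rows in both. Col1a2, at chromosome 6, 4504814 to 4541544 on the plus strand, encodes its partner chain. It had 1769746 counts in the PTH library and 1642861 in the untreated library, also at a ratio of 1.05 (1.04 to 1.05), and ranked 2nd in both. Together these 2 genes took 5.52% of all counts in the PTH library and 5.40% in the untreated library.

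The other abundant fibrillar genes were also near even. Col3a1 encodes the type III chain, which is mixed into type I fibrils of soft tissue, and had 214199 counts in the PTH library and 201781 in the untreated library, a ratio of 1.03 (1.02 to 1.04). Type V collagen sits at the core of type I fibrils and limits their diameter. Its Col5a1 chain had 205901 counts in the PTH library and 177328 in the untreated library, a ratio of 1.13 (1.12 to 1.13). Its Col5a2 chain, with 198038 and 184633 counts in the PTH and untreated libraries, was at 1.04 (1.03 to 1.05). Col5a3, a rarer chain, was at 1.11 (1.06 to 1.16). Col11a1, a cartilage fibril chain that can also pair with type V chains, was at 1.14 (1.12 to 1.16), and Col27a1, another cartilage fibrillar gene, at 1.14 (1.11 to 1.17). Col11a2, with 844 counts in the PTH library and 756 in the untreated library, was at 1.08, and its interval held 1.

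Col2a1, which encodes the single chain of cartilage type II collagen, had the highest ratio of the fibrillar genes. It had 38400 counts in the PTH library and 27597 in the untreated library, a ratio of 1.35 (1.33 to 1.37), which is short of the 1.5-fold limit. Its level per kilobase of exon was 60.1 CPM in the PTH library and 44.5 CPM in the untreated library. Sox9, the transcription factor known to activate Col2a1 in chondrocytes, had 10982 counts in the PTH library and 3264 in the untreated library, a ratio of 3.27 (3.14 to 3.40). The chains of cartilage type IX collagen were barely detected. Col9a1 had 0 counts in the PTH library and 4 in the untreated library, Col9a2 had 14 and 10, Col9a3 had 23 and 29, and Col10a1, the collagen of hypertrophic cartilage, was at 0 in both. Of the 5 chondrocyte markers with enough counts, Sox9 was the 1 called, with more reads, where 5.39% of all rows compared were. The other 4 were neither. Hapln1 was at 1.07 (0.974 to 1.18), Matn3 at 0.924 (0.810 to 1.05) and Comp at 0.792 (0.620 to 1.01). Sox5, with 29 counts in the PTH library and 20 in the untreated library, was at 1.41 (0.770 to 2.63). Any part of Sox9 in the Col2a1 value was not tested.

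Col24a1, a fibrillar gene known from developing bone, had 396 counts in the PTH library and 293 in the untreated library, a ratio of 1.31 (1.13 to 1.53). Its interval lay above 1 and reached past the 1.5-fold limit.

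**Figure D2:**
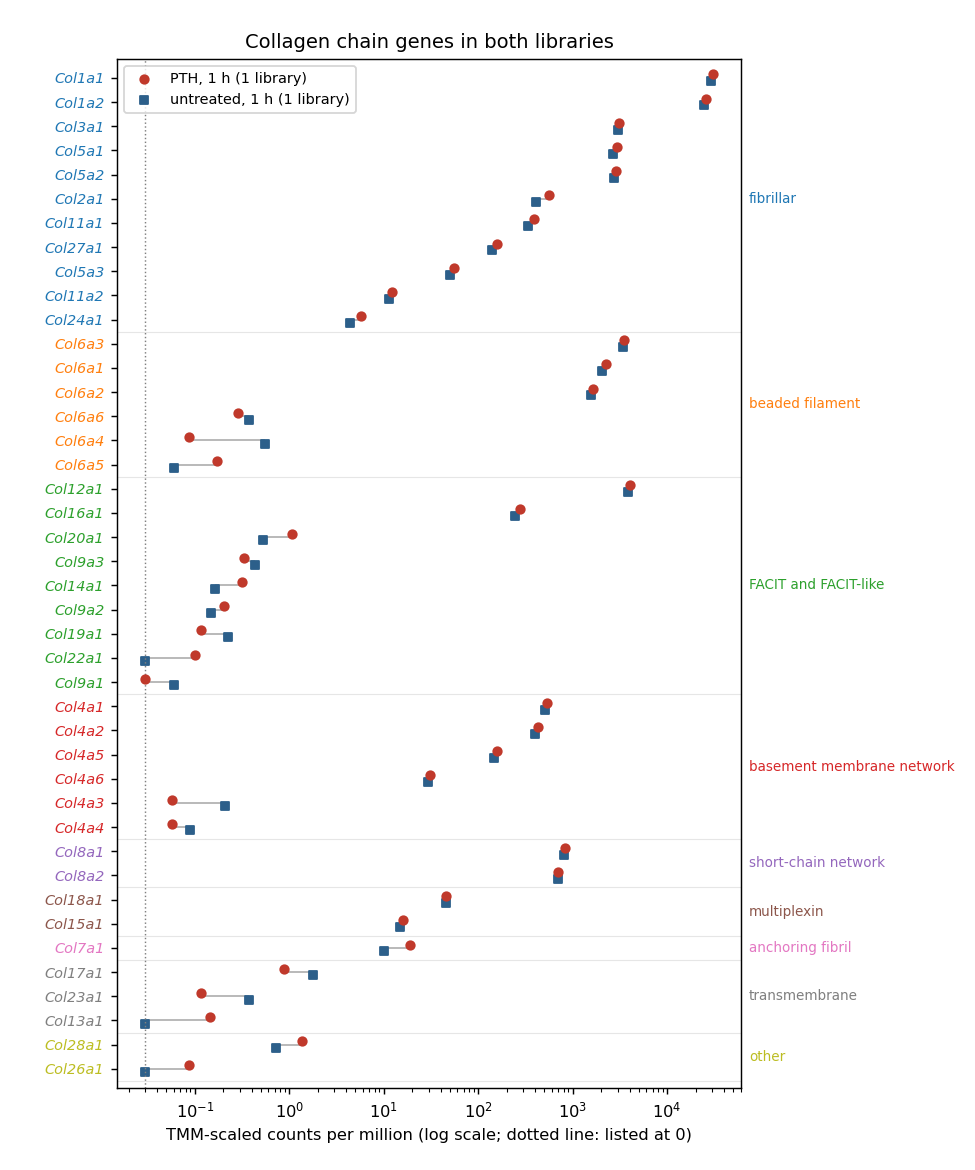
Scaled CPM (x axis, log scale) of the 42 collagen genes with a count in either library, grouped by structural class, with PTH as red circles and untreated as blue squares, 1 library each; the dotted line marks genes listed at 0. Points of the abundant genes nearly coincide, Col7a1 stands apart among genes above 1 CPM in both libraries, and wider gaps appear among genes near or below 1 CPM.

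Per length, the order of the collagens was nearly the same in both libraries. Levels per kilobase used all annotated exons of a gene. Col1a1 was highest, at 4614 CPM per kilobase in the PTH library and 4393 in the untreated library, followed by Col1a2 (2060 and 1970), Col6a1 (508 and 468), Col5a1 (351 and 311) and Col3a1 (316 and 306). Of the 24 genes with 1000 or more counts, 22 held the same rank in both, and Col7a1 and Col11a2 exchanged neighbouring places. The per-length gap between Col1a1 and Col1a2 rests on the length used. It was 2.24 in the PTH library and 2.23 in the untreated library over all annotated exons, and 1.07 and 1.06 over the transcript with the longest coding sequence, since annotated exons of Col1a2 sum to 12426 bases while that transcript has 5348.

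Beaded-filament collagen, type VI, surrounds cells and links them to the fibrillar matrix, and it held 9.17% of collagen counts in both libraries. Its main chains were near even. Col6a3 had 241804 counts in the PTH library and 228212 in the untreated library, a ratio of 1.03 (1.02 to 1.03), Col6a1 was at 1.09 (1.08 to 1.09) and Col6a2 at 1.07 (1.06 to 1.07). The later-described chains Col6a4, Col6a5 and Col6a6, which lie side by side on chromosome 9, were at trace levels. Col6a4, at chromosome 9, 105989454 to 106096783 on the minus strand, had 6 counts in the PTH library and 37 in the untreated library, a ratio of 0.157 (0.0543 to 0.376), and was the gene called with fewer reads. Its level was 0.0868 CPM in the PTH library and 0.551 CPM in the untreated library, and 3.39% of its exonic length overlaps exons on the opposite strand. Its neighbour Col6a5, under the count filter, had 12 counts in the PTH library and 4 in the untreated library. Col6a6, on the far side of Col6a5, had 20 and 25 counts in the PTH and untreated libraries, a ratio of 0.777 (0.409 to 1.46).

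Fibril-associated collagens (FACIT) coat the surface of fibrils, and their abundant members were near even. Col12a1, which is laid down on type I fibrils of bone and tendon, had 278617 counts in the PTH library and 256610 in the untreated library, a ratio of 1.05 (1.05 to 1.06). Col16a1 was at 1.11 (1.09 to 1.13). Col20a1, the next of the class by counts, had 74 counts in the PTH library and 35 in the untreated library, a ratio of 2.05 (1.36 to 3.16), which was not called because its lower bound was below 1.5. Col14a1 had 22 and 11 counts in the PTH and untreated libraries, a ratio of 1.94 with an interval that held 1 (0.903 to 4.44).

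Basement membrane collagen, type IV, forms sheet-like networks. Col4a1 had 37350 counts in the PTH library and 34191 in the untreated library, a ratio of 1.06 (1.05 to 1.08), and Col4a2 had 30007 and 26905, at 1.08 (1.07 to 1.10). Col4a5 was at 1.08 (1.05 to 1.11) and Col4a6 at 1.03 (0.970 to 1.10). Col4a3 and Col4a4, the chains of kidney glomerular basement membrane, were under the filter, with 4 and 4 counts in the PTH library and 14 and 6 in the untreated library. The short-chain network genes Col8a1 and Col8a2, found in vessel walls and Descemet's membrane of the eye, were at 1.03 (1.02 to 1.04) and 1.01 (0.994 to 1.02). The multiplexins Col18a1, the precursor of endostatin, and Col15a1 were at 0.984 (0.936 to 1.03) and 1.08 (0.991 to 1.18), and both intervals held 1.

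**Figure D3:**
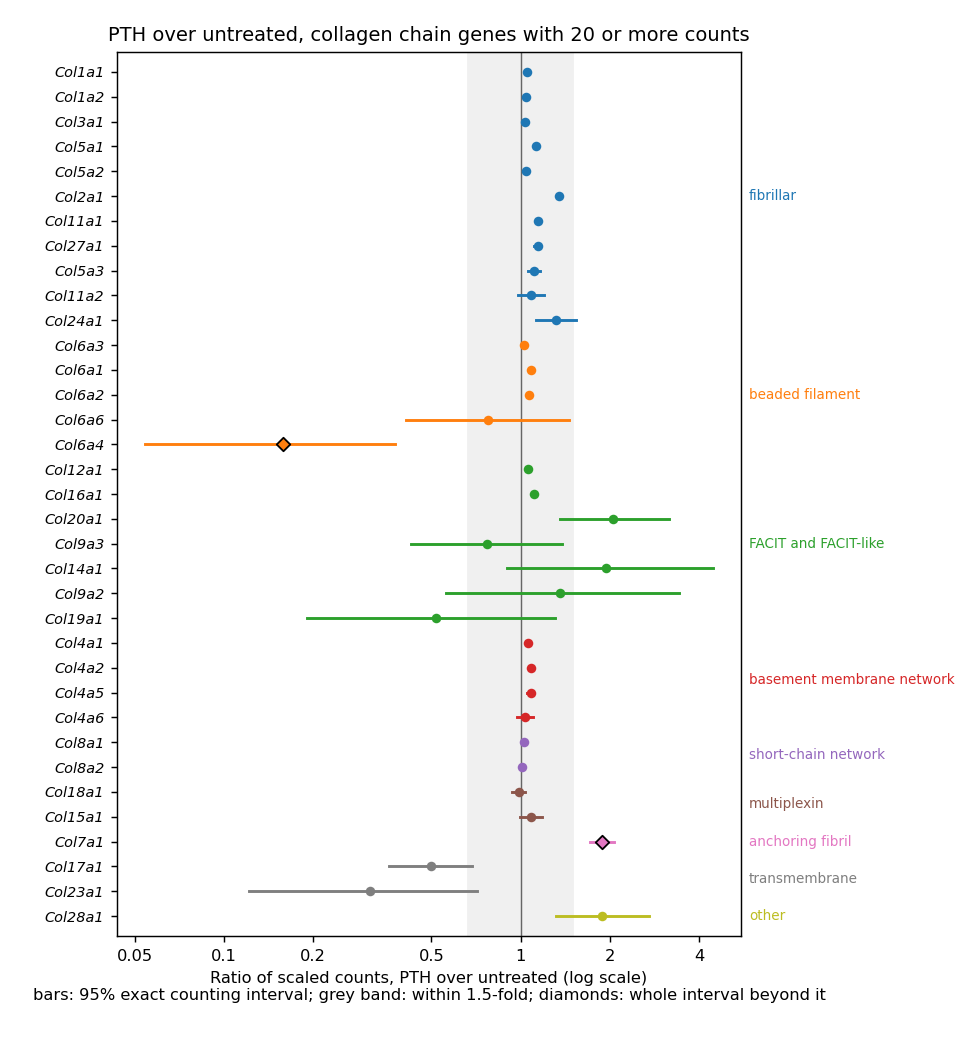
Ratio of scaled counts, PTH over untreated (x axis, log scale), with its 95% exact counting interval for the 35 collagen genes with 20 or more counts, ordered by class and by counts within it; the grey band marks 1.5-fold either way. Col7a1 at 1.88 and Col6a4 at 0.157 (diamonds) have intervals wholly outside the band, and the abundant genes cluster between 0.984 and 1.35.

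Col7a1 was the one collagen gene called with more reads. It encodes type VII collagen, the anchoring fibril that fastens the epidermal basement membrane to the dermis, and lies at chromosome 9, 108953586 to 108984875 on the plus strand. It had 1300 counts in the PTH library and 671 in the untreated library, a ratio of 1.88 (1.71 to 2.07), and its level was 18.8 CPM in the PTH library and 10.0 CPM in the untreated library. Widening the interval by a coefficient of variation of 0.2, assumed for cultures since none could be measured, gave 1.07 to 3.30, and the call was lost, as it was with 0.1. At a ratio of 1.88 both widenings lose the call whatever the counts, so its loss cannot judge this gene. The microRNA gene Mir711 lies in Col7a1 and shares 0.350% of its exonic length. Among the basal epithelial markers, whose tissue also makes type VII collagen, Trp63 was at 1.09 (1.01 to 1.17), Krt14 had 247 counts in the PTH library and 160 in the untreated library, and Cdh1 had 14 and 42, a ratio of 0.324 (0.163 to 0.605). Krt5 and Epcam, on the same list, were at 0 in both libraries. What underlies the Col7a1 value was not tested.

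Promoter sequence is shown for Col7a1, the gene called with more reads, and for Col24a1 and Col3a1, which show the contrast in motifs. The cyclic AMP response element, TGACGTCA, and its core, TGACG, were searched on both strands, and the TATA motif, TATAA, on the forward strand, in windows from 250 bases before to 50 after each start (RefSeq, GRCm38.p6). Of the 44 genes 35 had an entry, with 38 windows between them. TGACG lay in 4 of these 38 windows (Col7a1, Col24a1, Col11a2 and Col4a5), a lower share than the 20.8% of all 32851 windows that hold it. TGACGTCA, which contains the core on both strands, lay in 1 of the 38 (Col24a1), and 1.79% of all windows hold it. TATAA lay in 7 of the 38, and 17.5% of all windows hold it. Capitals below mark these motifs, and each sequence runs 5′ to 3′ on the gene's strand, up to the base before the start for Col7a1 and Col3a1 and through the first transcribed base for Col24a1.
Col7a1, chr9:108953336-108953585, plus strand: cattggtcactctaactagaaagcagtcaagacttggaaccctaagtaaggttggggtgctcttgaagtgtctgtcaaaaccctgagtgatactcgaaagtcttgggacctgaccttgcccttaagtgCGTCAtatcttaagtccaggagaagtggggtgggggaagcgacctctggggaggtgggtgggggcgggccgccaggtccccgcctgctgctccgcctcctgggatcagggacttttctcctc
Col24a1, chr3:145292222-145292472, plus strand: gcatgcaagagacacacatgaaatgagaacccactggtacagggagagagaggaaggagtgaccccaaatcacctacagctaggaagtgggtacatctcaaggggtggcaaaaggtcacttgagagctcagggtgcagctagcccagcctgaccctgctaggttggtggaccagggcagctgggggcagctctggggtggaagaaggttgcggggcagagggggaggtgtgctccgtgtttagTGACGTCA
Col3a1, chr1:45311288-45311537, plus strand: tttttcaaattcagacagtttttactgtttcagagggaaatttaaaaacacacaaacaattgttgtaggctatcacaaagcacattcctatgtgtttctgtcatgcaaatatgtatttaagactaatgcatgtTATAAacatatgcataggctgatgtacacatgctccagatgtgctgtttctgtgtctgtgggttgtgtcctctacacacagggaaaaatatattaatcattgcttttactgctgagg
In Col7a1 the core is on the reverse strand and begins at position -122. In Col24a1 the whole element begins at -7 and crosses the start. In Col3a1 the TATA motif begins at -117 and neither the core nor the element is in the window. The 4 genes with the core had ratios of 1.88 (Col7a1), 1.31 (Col24a1), 1.08 (Col11a2) and 1.08 (Col4a5). Those whose sequence is shown, Col7a1 and Col24a1, have the highest of these ratios. Genes with and without the core were not compared, and any link of the core to a ratio was not tested. A match in this window is a description of the sequence and says nothing of binding.

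Chains that assemble into one molecule stood in nearly the same balance in both libraries. The count ratio of 2 chains within a library needs no scaling, and the PTH library's ratio was divided by the untreated library's, giving a ratio of ratios, for 11 of 13 chain pairs, the other 2 having a member under the count filter. For type I collagen, Col1a1 over Col1a2 was 1.18 in counts in both libraries, a ratio of ratios of 1.004 (1.001 to 1.007). Col4a1 and Col4a2, which lie head to head on chromosome 8 with annotated starts 21 bases apart, had a ratio of ratios of 0.979 (0.958 to 1.001). Col4a5 and Col4a6, head to head on the X chromosome with starts 1309 bases apart, had a ratio of ratios of 1.05 (0.978 to 1.12). Col6a1 over Col6a2 had a ratio of ratios of 1.02 (1.01 to 1.03) and Col8a1 over Col8a2 by 1.02 (1.003 to 1.04).

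Shifts between partner chains were small where they could be measured. Col5a1 over Col5a2 was 1.04 in the PTH library and 0.960 in the untreated library, a ratio of ratios of 1.08 (1.07 to 1.09), and Col11a1 over Col5a2 had a ratio of ratios of 1.10 (1.08 to 1.12). Col6a3 over Col6a1 was 1.57 in the PTH library and 1.66 in the untreated library, a ratio of ratios of 0.947 (0.938 to 0.956). Col5a3 over Col5a1 had a ratio of ratios of 0.983 (0.937 to 1.03) and Col11a1 over Col11a2 by 1.05 (0.954 to 1.17). Col9a3 over Col9a2, at 0.567 (0.188 to 1.68), could not be judged at this depth. In all, the interval excluded 1 for 6 of the 11 pairs, and for 0 of 11 when widened for the assumed variation of 0.2. The widening took that variation as independent for each count of a pair. At ratios of ratios from 0.567 to 1.10 such an interval holds 1 whatever the counts, so the 0 of 11 cannot judge these shifts.

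**Figure D4:**
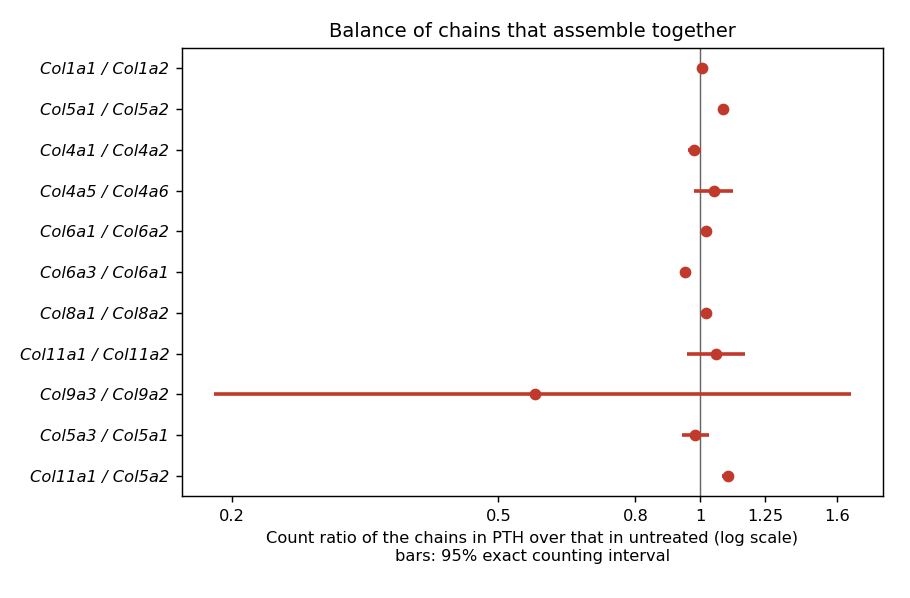
Change in the count ratio of 2 collagen chains, PTH library over untreated library (x axis, log scale), for the 11 chain pairs with both members compared; points are the ratio of ratios and bars its 95% exact counting interval. Of the pairs, 10 lie between 0.947 and 1.10, and Col9a3 over Col9a2, with few counts, has a wide interval.

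Among transmembrane collagens and the low-count remainder, ratios lay further from 1 and rested on few reads. Col17a1, a hemidesmosome collagen of epithelia, had 61 counts in the PTH library and 119 in the untreated library, a ratio of 0.498 (0.359 to 0.683), and it was called with total-count scaling. Col23a1 had 8 and 25 counts in the PTH and untreated libraries, a ratio of 0.311 (0.121 to 0.711). Col28a1 had 95 and 49, a ratio of 1.88 (1.32 to 2.71). None of these 3 was called at the scaling used. Col13a1, Col22a1 and Col26a1 had 10, 7 and 6 counts in the PTH library and were at 0 in the untreated library, and Col25a1 was at 0 in both. Just above the filter stood Col9a2 and Col19a1, and Col19a1 had 8 counts in the PTH library and 15 in the untreated library. Just below it stood Col4a3 and Col6a5. The 20 genes with fewer than 1000 counts held 770 of the collagen counts in the PTH library and 676 in the untreated library.

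The genes that modify, secrete, cross-link, degrade and sense collagen were likewise mostly near even. Of 61 compared on 5 lists, 3 were called with more reads, 0 with fewer and 58 were neither. That is 4.92% with more reads, beside 5.39% of all rows compared, and 0% with fewer, beside 3.54%, so the calls were near the background. Their median log2 ratio was 0.03. None of 17 modification and folding genes was called. Among them, Serpinh1, the collagen chaperone HSP47, was at 1.02 (1.02 to 1.03), and P4hb, a subunit of prolyl 4-hydroxylase, at 1.15 (1.14 to 1.16). None of 16 extracellular processing and crosslinking genes was called, with Fn1, fibronectin, at 1.03 (1.03 to 1.03) and Sparc, a collagen-binding matrix protein, at 1.15 (1.14 to 1.15).

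The 3 calls were a transcription factor, a protease inhibitor and a receptor subunit. Smad3, which carries TGF-beta signals to collagen promoters, had 7522 counts in the PTH library and 3782 in the untreated library, a ratio of 1.93 (1.86 to 2.01). It was the 1 call among 10 secretion and transcription genes, in which Mia3, needed to export procollagen, was at 1.19 (1.16 to 1.21) and Sec24d, a coat protein of the same export route, at 1.06 (1.04 to 1.09). On the same list Sp1 was at 0.652 (0.633 to 0.673) and Tmem38b at 0.601 (0.533 to 0.677). Neither was called, since the upper bounds lay just above the limit of 0.667. Timp1, an inhibitor of matrix metalloproteinases, had 24451 counts in the PTH library and 15041 in the untreated library, a ratio of 1.58 (1.55 to 1.61). It was the 1 call among 9 turnover genes, beside Timp2 at 1.04 (1.03 to 1.05) and Timp3 at 0.736 (0.728 to 0.743). Exons of Syn3 on the opposite strand overlap 21.3% of Timp3. Itga2, the alpha subunit of a collagen-binding integrin, had 33 counts in the PTH library and 7 in the untreated library, a ratio of 4.58 (1.99 to 12.3). It was the 1 call among 9 receptor genes, beside Itgb1 at 0.986 (0.977 to 0.996) and Cd44 at 1.22 (1.203 to 1.244). Each of the 3 calls was lost under some setting: those of Smad3 and Timp1 with the interval widened for the assumed variation of 0.2, and that of Itga2 with a filter of 200 counts. At ratios of 1.93 and 1.58 that widening loses the call whatever the counts, so it cannot judge Smad3 and Timp1.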

How the data were processed

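RNA from 1 PTH-treated and 1 untreated culture was sequenced. The authors deposited 1 table of raw read counts per gene, not normalised. Per the submitters' processing notes, HISAT2 and the mm10 build were used. No source used here gives the HISAT2 version, the counting tool, the annotation or any use of strand. Of the row identifiers 55227, and all 44 collagen genes, were found in GENCODE release M21 (GRCm38), used for coordinates, exonic length and shared exons. Shared exons reached 1.54% of a collagen gene's exonic length on the same strand and 6.07% on the opposite strand.

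Counts were scaled with edgeR 4.0.16 (R 4.3.3) TMM factors over the 16408 rows with 20 or more counts, giving a scaling ratio of 1.03, PTH over untreated. A model test across genes was not run, since a single library per condition leaves no residual degrees of freedom for edgeR or DESeq2. Ratios carry a 95% exact conditional (Clopper-Pearson) interval, and chain pairs the exact conditional interval of an odds ratio (Python 3.11.15, scipy 1.17.1, numpy 2.4.6, pandas 2.3.3; plots with matplotlib 3.10.9). Intervals cover counting error only, since 1 library per condition gives no measure of the variation between cultures. PCR copies of a molecule are counted as separate reads, which the intervals do not allow for. Log2 ratios had 0.5 count added to each library. The interval and the calling rule were tested on simulated data whose counts varied by counting error only. Variation between cultures was not simulated, so that test does not cover it.

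Genes were named by rule: called collagen genes, the 2 of each class with most counts, both genes of a chain pair, the 2 nearest the filter on each side, and from the 5 lists up to 4 called genes, or the 2 with most counts where fewer than 2 were called. Other members and markers in the text were chosen after their values were seen. The members, lists and tests were chosen with earlier results of these data known. Of the marker genes 3 (Postn, Runx2 and Sparc) are also on the 5 lists. Alternatives were other scalings, including the size factors of DESeq2 1.42.0, count filters, fold limits and widened intervals.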

Additional observations from a re-analysis of the deposited data

How the results depend on the processing

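No paired analysis was possible because each condition has 1 library, and leaving a library out leaves no comparison. The count of collagen genes with more reads was 1 in the report and under the 4 other scalings. It was 2 with no filter (Col13a1 added; 5.89% of all rows), 0 with a 2-fold limit (3.15%), 4 of 35 with a 1.2-fold limit (Col2a1, Col20a1 and Col28a1 added; 10.5%), and 0 with intervals widened for a coefficient of variation of 0.1 (4.14%) or 0.2 (2.89%). At its ratio of 1.88, Col7a1 was bound to be lost with either widening. The count with fewer reads was 1 in the report, 2 with total-count scaling (Col17a1 added, at 0.485; 3.92% of all rows), 0 with a filter of 200 counts, which removes Col6a4 (2.05%), 3 of 35 with the 1.2-fold limit (8.89%), and 1 with either widened interval. The abundant collagens with an interval wholly below 1 numbered 0 in the report and 1 with total-count scaling. Counting intervals wholly above or below 1 was chosen after seeing the data. The median log2 ratio stayed between 0.05 (total-count scaling) and 0.11 (filter of 200). The collagen share ratio of 1.027 was 1.016 without the 10 largest other rows and 1.022 over protein-coding rows. Calls on the 5 lists are given with the percent of all rows called with more and with fewer reads. They numbered 3 of 61 in the report (5.39% and 3.54%). With total-count (5.12% and 3.92%) or upper-quartile scaling (5.24% and 3.78%) there were 5, Sp1 and Tmem38b added, both lower. The 2-fold limit gave 0 (3.15% and 1.6%) and the 1.2-fold limit 9 of 61 (10.5% and 8.89%). Intervals widened for 0.1 (4.14% and 2.46%) or 0.2 (2.89% and 1.63%) left 1, Itga2. Smad3 and Timp1 were bound to be lost there at their ratios. No filter gave 4 (5.89% and 4.18%). A filter of 200 counts gave 2, Smad3 and Timp1 (3.81% and 2.05%). The chain pairs whose interval excluded 1 numbered 6, and 0 when widened, which was bound to hold 1 at these ratios. The Col1a1 to Col1a2 level per kilobase in the PTH library was 2.24, and 1.07 by coding transcript length, an alternative chosen after seeing the data. Depth limits the genes with few counts, and the variation between cultures is unknown.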
